A study of Mus musculus with 36 samples.

Results

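A set of 118 transcripts stood at least 4-fold higher on average in hematopoietic stem cells (HSCs) than in restricted progenitors (RPs) of mouse bone marrow, with every HSC library above every RP library. The set was drawn from 138835 transcripts in the deposited count table, of which 80388 had a count in the 18 libraries used. Levels are CPM, a transcript's count divided by the library's total and multiplied by 1e+06. A transcript entered the set when its mean over 10 HSC libraries was at least 10 CPM, that mean was at least 4 times its mean over 8 RP libraries, and its lowest HSC level was above its highest RP level. The first condition held for 8385 transcripts, the first and second for 192, and all 3 for 120. Of 6 identifiers that the rule set aside by name, 2 met the conditions and were left out. These transcripts were thus chosen by their HSC and RP levels, and their values in that comparison are given as a description.

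The study sorted cells from C57BL/6 mice aged 8 weeks to measure RNA, and chromatin accessibility in 18 samples that are not analysed here, after loss of DNMT3A or TET2. Every group, controls included, carried the Vav-driven Cre recombinase, which is active in blood-forming cells from early in life, so a deletion is shared by all blood lineages. Control mice had Dnmt3a+/+ and Tet2+/+ alleles, Tet2KO mice had Tet2 fl/fl, and Dnmt3aKO mice had a floxed Dnmt3a that the labels write as fl/fl or +. Each RNA library came from pooled male and female mice, with pool sizes that differ within the labels, and p-values measure the spread between such pools. Both cell types were sorted from the Lin-, cKit+ and Sca1+ compartment, HSCs by CD150 without CD48 and RPs by CD48 without CD150. The groups were Control HSC (3 libraries), Dnmt3aKO HSC (3), Tet2KO HSC (4), Control RP (4) and Tet2KO RP (4), and there was no Dnmt3aKO RP library in the data used.

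HSCs sit at the top of blood formation and can renew themselves, while restricted progenitors lie downstream, divide more and give rise to a narrower range of blood cells. Transcripts that are abundant in HSCs and lost on differentiation serve as a readout of the stem cell state. DNMT3A places methyl groups on cytosine and TET2 oxidises them, and loss of either enzyme in blood-forming cells is known to favour HSC self-renewal over differentiation. The identifiers are Ensembl mouse transcripts, and the tables used here do not pair them with genes, so no function, protein or sequence is given. For the same reason neither the cell type labels nor the loss of Dnmt3a and Tet2 could be checked against their own transcripts.

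Libraries held between 3721009 and 9366421 counts. At an equal depth of 3721009 counts, the number of transcripts detected was 33584, 37439 and 31276 in Control HSC libraries 2, 3 and 4, and 36907, 38514 and 25496 in Dnmt3aKO HSC libraries 1, 2 and 4. It was 42174, 41473, 44049 and 33540 in Tet2KO HSC libraries 1 to 4, and 39880 to 44910 in the 8 RP libraries. The HSC library numbered 4 was the lowest of its group in each genotype, and results that lead the text are also given without these 3 libraries. HSC libraries keep the numbers of their labels. RP libraries could be assigned to their group only, so they carry the letters a to d, which pair with nothing.

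The set covered a wide range of abundance. Mean HSC levels ran from 10.04 to 2898 CPM, with a median of 33.47 and quartiles of 20.27 and 83.84 CPM. At least 100 CPM was reached by 22 transcripts, and 29 lay under 20 CPM. Mean RP levels ran from 0.1388 to 535.5 CPM, with a median of 4.092 CPM. The most abundant transcript, ENSMUST00000060792.5, made up 26.3% of the set's summed HSC level, and the 10 most abundant made up 54%. The ratio of mean HSC to mean RP level had a median of 7.547 and quartiles of 5.326 and 11.45. It was under 8 for 64 transcripts and at least 16 for 23. Just inside the 4-fold threshold lay a transcript with a ratio of 4.006, and just outside it one with 3.987. At the level threshold the nearest means were 10.04 and 9.883 CPM, and the lowest HSC level divided by the highest RP level came to 1.029 and 0.9899 on either side of 1. That last ratio had a median of 2.031 over the set. In RPs 23 transcripts had no count in at least 1 library, but only 2 had none in 4 or more, so most of the set was detected in RPs at a low level. In bulk RNA, fewer cells that express a transcript and less of it per cell cannot be told apart.

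**Figure D1:**
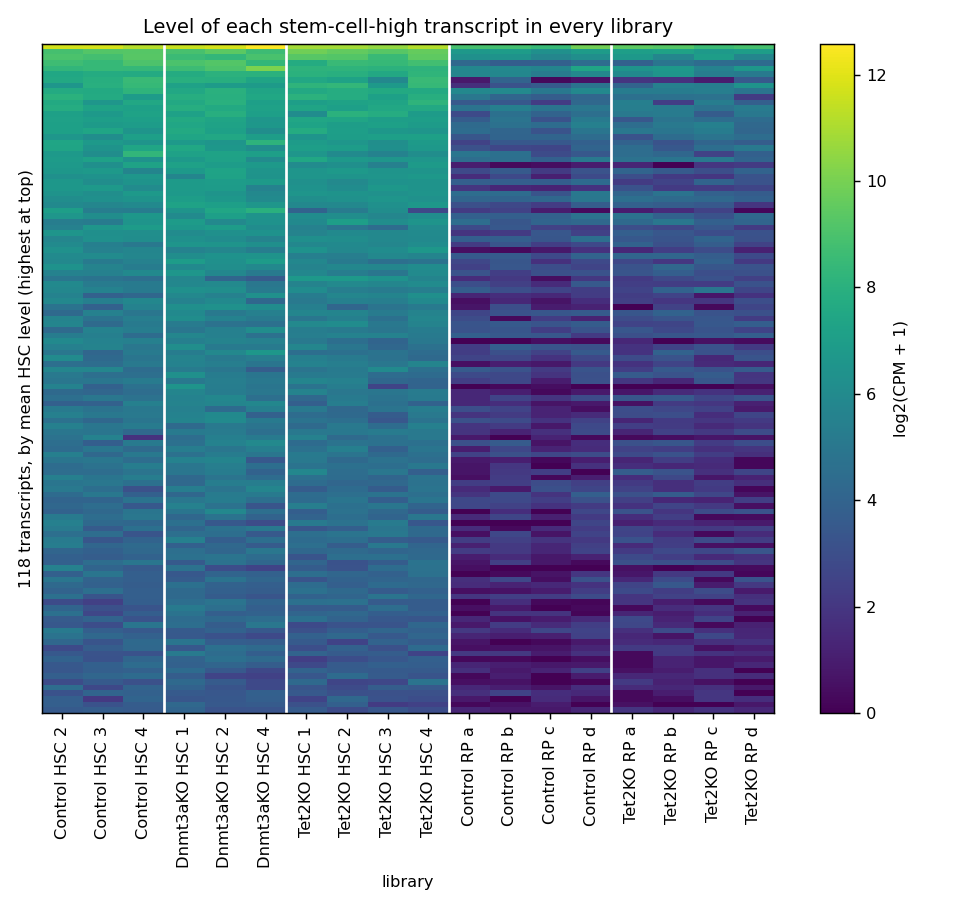
Level of each of the 118 transcripts (vertical axis, ordered by mean HSC level) in the 18 libraries (horizontal axis), as log2(CPM + 1) in colour, with white lines between groups. The 10 HSC columns are brighter than the 8 RP columns throughout, which the choice of the set requires, and single transcripts differ between HSC libraries.

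Within HSCs the transcripts varied between libraries by a median of 3.46-fold from the lowest to the highest of the 10. Quartiles of this range were 2.505-fold and 4.731-fold. It was under 2-fold for 10 transcripts and over 8-fold for 5, up to 46.25-fold for ENSMUST00000050027.8. The median coefficient of variation of a transcript between libraries of a group was 31.2% in Control, 31.5% in Dnmt3aKO and 30.4% in Tet2KO HSCs, against 53.4% in Control and 47.6% in Tet2KO RPs, where counts are lower.

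The 2 most abundant transcripts of the set were well counted in both cell types. ENSMUST00000060792.5 stood at 3337, 3502 and 2336 CPM in Control HSC libraries 2, 3 and 4, at 2933, 3474 and 6105 CPM in Dnmt3aKO HSC libraries 1, 2 and 4, and at 1804, 1800, 1464 and 2226 CPM in Tet2KO HSC libraries 1 to 4. Its RP levels were 461.1, 441.5, 338.1 and 926.5 CPM in Control and 667.6, 592.1, 383 and 473.9 CPM in Tet2KO libraries a to d. All 4 Tet2KO HSC libraries lay below all 6 other HSC libraries, and Dnmt3aKO library 4 stood above every other. ENSMUST00000032341.2, the next in abundance, stood at 461.4, 583.5 and 614.9 CPM in Control, at 479, 667.4 and 389.7 CPM in Dnmt3aKO, and at 930.4, 755.3, 639.3 and 784.1 CPM in Tet2KO HSCs. Its RP levels were 102.2, 122.3, 78.35 and 118.4 CPM in Control and 129.4, 149.7, 107.3 and 128.2 CPM in Tet2KO libraries. In plain CPM the Tet2KO HSC libraries lay above all Control ones and overlapped the Dnmt3aKO ones, the opposite order to that of the most abundant transcript. This separation from Control depended on the scaling. TMM factors of 1.18 for Tet2KO library 3 and 0.808 for Control library 4 put the first below the second.

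The 2 transcripts with the largest ratios were nearly silent in RPs. ENSMUST00000205228.2, with a ratio of 236.2, stood at 46.06, 13.79 and 25.04 CPM in Control, at 89.33, 38.91 and 28.87 CPM in Dnmt3aKO, and at 26.59, 39.09, 5.018 and 15.13 CPM in Tet2KO HSCs. It had 6 counts over the 8 RP libraries, and 5 of these libraries had none. Its 3 HSC groups overlapped. ENSMUST00000032127.5, with a ratio of 101.5, stood at 62.22, 46.02 and 43.82 CPM in Control, at 41.61, 48.64 and 44.69 CPM in Dnmt3aKO, and at 33.46, 22.54, 15.8 and 31.53 CPM in Tet2KO HSCs. It had 15 counts over the 8 RP libraries. All Tet2KO HSC libraries lay below all Control and Dnmt3aKO ones, at a mean of 25.83 ± 8.209 (SD, n = 4) against 50.69 ± 10.05 (SD, n = 3) and 44.98 ± 3.523 (SD, n = 3) CPM. The edgeR test did not separate Tet2KO from Control for it (log2 fold change -1.07, SE 0.51, adjusted p = 0.4427).

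**Figure D2:**
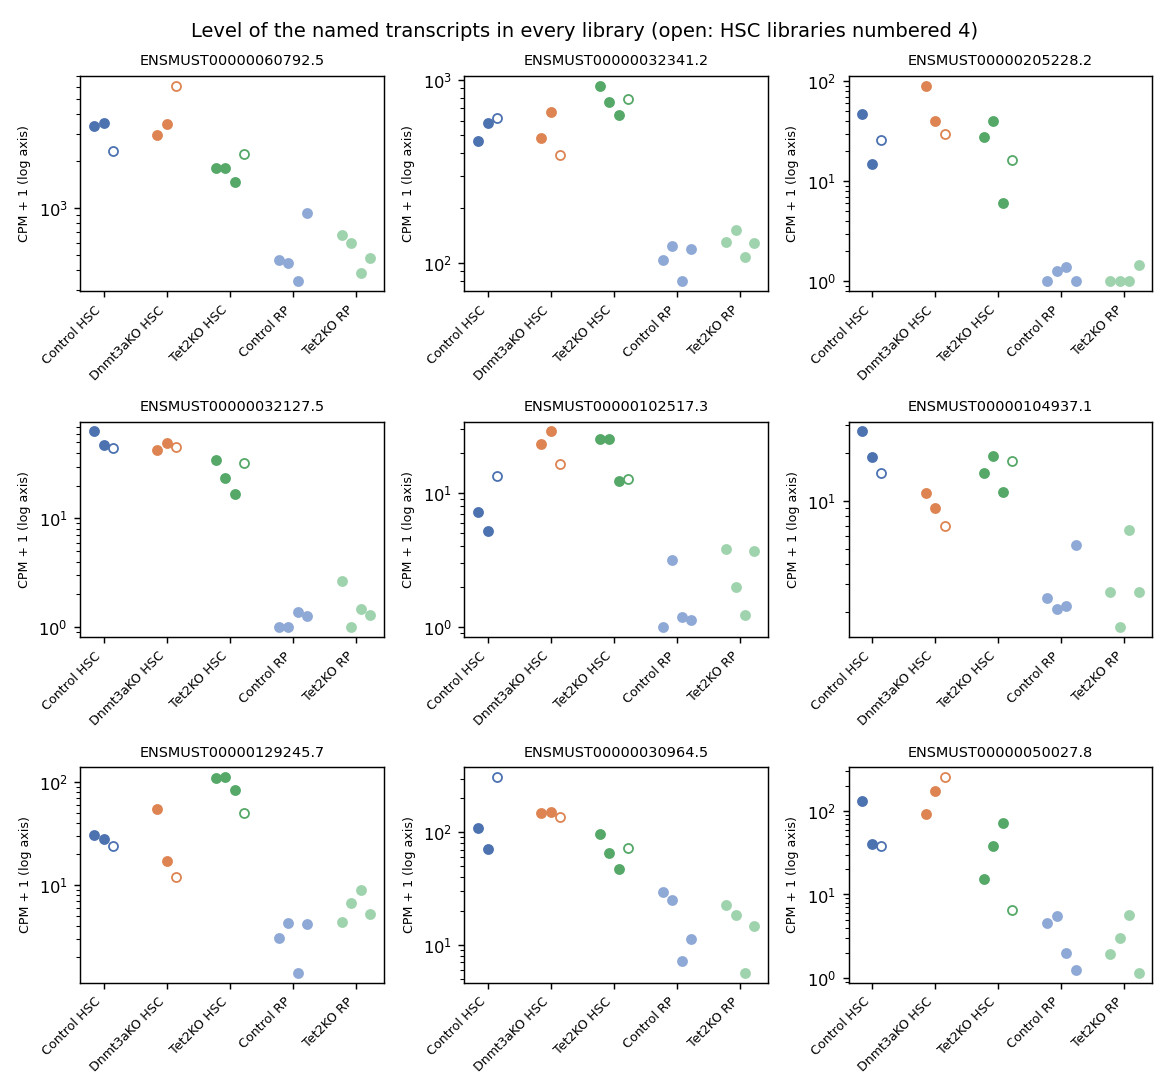
CPM + 1 on a log axis (vertical) of 9 transcripts in each library of the 5 groups (horizontal), 1 point a library, with open points for the HSC libraries numbered 4. In ENSMUST00000129245.7 the Tet2KO HSC points lie above all Control ones, and in ENSMUST00000032127.5 they lie below them.

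To test the difference between cell types on libraries that had no part in the choice, the same thresholds were applied to the Control libraries alone and the result was tested in Tet2KO libraries, and the reverse. Control libraries chose 200 transcripts, of which 105 belong to the set of 118. In Tet2KO cells, edgeR's quasi-likelihood test (Benjamini-Hochberg adjusted p under 0.05) called 95 of them higher in HSCs and 0 lower, which is 47.5% of those chosen. Over all 20272 transcripts tested there, 1.05% were called higher in HSCs. Of the 196 that passed the filter on low counts, 184 had a log2 fold change above 0 and 12 below, with a median of 2.22 against -0.02 over all transcripts tested. No overlap between the 4 HSC and 4 RP libraries was seen for 139, or 69.5% of those chosen, against 5.24% of all. At least a 4-fold difference was kept by 114. The share of all tested transcripts at 4-fold was not computed, in this direction or the reverse. The typical difference was smaller in the libraries that had no part in the choice: on the log2 scale of (CPM + 1), the median ratio was 2.56 in Control and 1.97 in Tet2KO cells.

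In the other direction, Tet2KO libraries chose 143 transcripts, 94 of them in the set of 118. In Control cells 91 were called higher in HSCs and 0 lower, which is 63.6% of those chosen against 1.73% of all 18739 tested. Of 141 that passed the filter, 139 lay above 0 and 2 below, with a median log2 fold change of 2.87 against 0.01 over all. The HSC and RP libraries did not overlap for 116, or 81.1%, against 6.78% of all, and 106 kept at least a 4-fold difference. Here the median log2 ratio was 2.49 in the libraries that chose and 2.49 in those that tested. Without the HSC libraries numbered 4, in both the choice and the test, 95 of 286 Control-chosen and 94 of 168 Tet2KO-chosen transcripts were called higher in HSCs. Over all transcripts tested, 208 and 361 were then called higher in HSCs. These lists were longer than the 200 and 143 chosen with all libraries, and a smaller share of each was called than the 47.5% and 63.6% there.

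**Figure D3:**
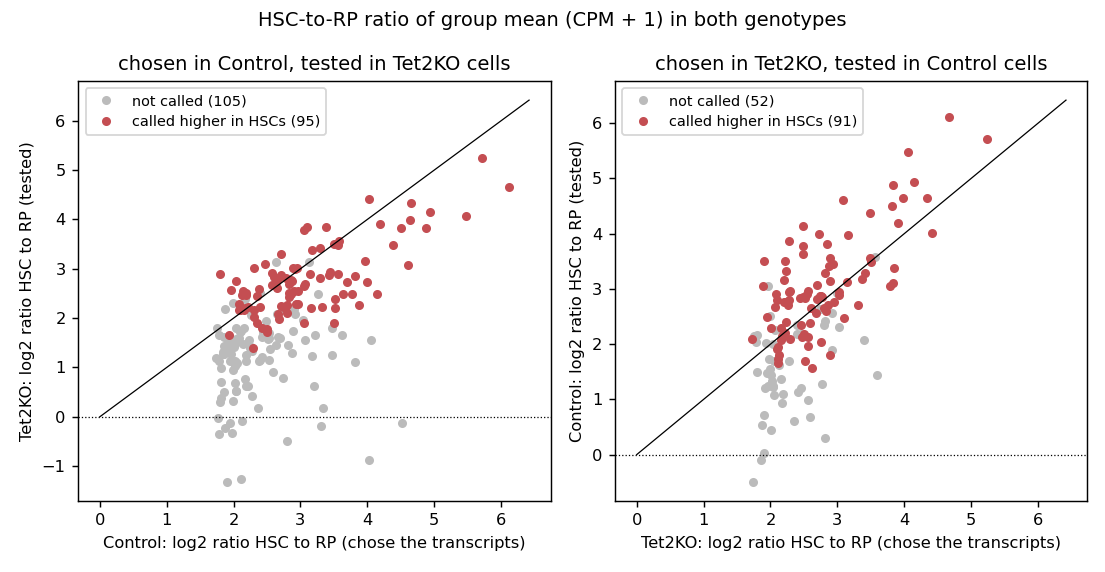
Log2 ratio of mean HSC to mean RP (CPM + 1) in the libraries that chose the transcripts (horizontal) and in those that tested them (vertical), for 200 transcripts chosen in Control (left) and 143 chosen in Tet2KO (right). Red points were called higher in HSCs, grey points were not called or were not tested, and the diagonal marks equal ratios. Most points lie above 0, and more lie under the diagonal on the left.

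Within the 118 transcripts, the ratio of HSC to RP level had a median of 9.21 in Control (quartiles 5.34 and 16, range 3.3 to 312) and 6.34 in Tet2KO cells (quartiles 4.7 and 10.6, range 2.57 to 190). It was higher in Control for 78 of 118. Neither the share among other transcripts nor the values without the HSC libraries numbered 4 were computed for this ratio. It was under 4 for 11 transcripts in Control and for 19 in Tet2KO, although the rule holds over both genotypes together.

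The summed level of the set was highest in Dnmt3aKO HSCs. It came to 11280, 10540 and 10640 CPM in Control HSC libraries 2, 3 and 4, to 12030, 12930 and 14300 CPM in Dnmt3aKO libraries 1, 2 and 4, and to 9875, 9710, 8131 and 10720 CPM in Tet2KO libraries 1 to 4. On this scale no Dnmt3aKO library overlapped another group, while Control and Tet2KO overlapped. The means were 10820 ± 403 (SD, n = 3), 13090 ± 1142 (SD, n = 3) and 9610 ± 1081 (SD, n = 4) CPM. In RPs they were 1558 ± 504.2 (SD, n = 4) in Control and 1755 ± 199.1 (SD, n = 4) in Tet2KO, which overlapped. Without the libraries numbered 4 the HSC means were 10910, 12480 and 9239 CPM.

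The separation of Dnmt3aKO HSCs depended on the scaling and on 1 transcript. With TMM-scaled library sizes, the sums ran from 10140 to 13160 CPM in Control, from 11040 to 19300 CPM in Dnmt3aKO and from 6919 to 11760 CPM in Tet2KO HSCs, and all neighbouring groups overlapped. Without ENSMUST00000060792.5, the plain sums were 7943, 7037 and 8300 CPM in Control, 9097, 9457 and 8193 CPM in Dnmt3aKO, and 8072, 7911, 6668 and 8497 CPM in Tet2KO HSCs. Dnmt3aKO libraries 1 and 2 were then still above all others, and library 4 was not. Control and Tet2KO means without that transcript were 7760 ± 651.1 (SD, n = 3) and 7787 ± 785.9 (SD, n = 4) CPM, a difference far within the spread. The median level over the set was 32.97 ± 4.864 (SD, n = 3) CPM in Control, 40.41 ± 6.404 (SD, n = 3) in Dnmt3aKO and 31.62 ± 2.732 (SD, n = 4) in Tet2KO HSCs.

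**Figure D4:**
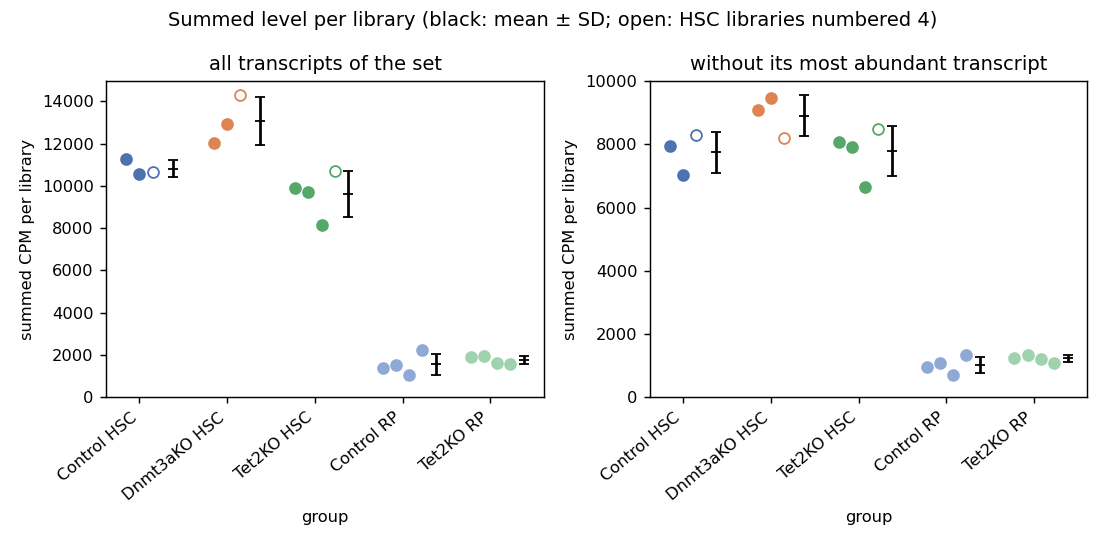
Summed CPM of the 118 transcripts (left) and of the set without its most abundant transcript (right) per library, by group, with the mean ± SD in black and open points for the HSC libraries numbered 4. On the left the 3 Dnmt3aKO libraries lie above all other HSC libraries, and on the right Dnmt3aKO library 4 lies at 8193 CPM, among the other groups.

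Transcript by transcript, the highest group mean was in Dnmt3aKO HSCs for 69 of 118 (58.5%), in Control for 26 (22%) and in Tet2KO for 23 (19.5%). Among the 8267 other transcripts with a mean HSC level of at least 10 CPM, the corresponding shares were 27.5%, 30% and 42.5%. The lowest mean was in Tet2KO for 50 (42.4%), in Control for 46 (39%) and in Dnmt3aKO for 22 (18.6%), against 26.7%, 34.2% and 39.2% of the others. Dnmt3aKO library 1 was the highest of all 10 HSC libraries for 29 transcripts and library 2 for 23, while 12.9% and 7.4% of the other expressed transcripts were highest there. Library 4 of that group was highest for 14 and lowest for 24, against 9.17% and 33.3% of the others. These 3 groups share no fixed order: each genotype was highest for part of the set.

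Genotypes were compared with edgeR's quasi-likelihood test over all 26820 transcripts that passed the filter, which included all 118, with TMM scaling and Benjamini-Hochberg adjustment over all of them. The choice of the set did not use these contrasts, but a transcript that fell to the RP level in 1 genotype could not enter it. The comparisons of Dnmt3aKO and of Tet2KO with Control share the Control HSC libraries.

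In Dnmt3aKO against Control HSCs, 83 of 118 transcripts had a log2 fold change above 0 and 35 below, and 0 passed the test. The 83 are 70.3% of the set, against 49.9% of all transcripts tested and 50.4% of the other expressed ones. The median was 0.23, against 0 over all tested and a median standard error of 0.51 for a single transcript, and values ran from -1.29 to 1.55. Over all transcripts 0.0149% were called. The smallest adjusted p in the set was 0.5145 by edgeR, 9 transcripts had an unadjusted p under 0.05 (9 higher, 0 lower; 7.63% of the set and 7.75% of all), and DESeq2 called 0 of the set and 0.62% of all. No overlap between libraries, with Dnmt3aKO higher, was seen for 16 (13.6%) against 3.63% of all and 4.04% of the other expressed ones. Dnmt3aKO was lower without overlap for 3 (2.54%) against 3.75% of all and 3.58% of the other expressed ones. At least 2-fold higher were 15 (12.7%), near the 14% of all, and 2-fold lower were 2 (1.69%) against 14.3% of all. All tested transcripts include those below the HSC level that the set required. For the other expressed ones, shares at 2-fold or at an unadjusted p under 0.05 were not computed in any genotype comparison. Whether the set differs in these shares from transcripts of similar level was thus not tested. The median was 0.11 without Control library 3, with 75 above 0, and 0.40 without Control library 4, with 93 above 0. Without all 3 libraries numbered 4 it was 0.28, with 87 above 0.

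By the ratio of group means, the 2 ends of this comparison were transcripts with means under 22 CPM in both groups. ENSMUST00000102517.3 stood at 6.263, 4.184 and 12.36 CPM in Control and at 22.33, 27.89 and 15.52 CPM in Dnmt3aKO HSCs, which did not overlap. It was at 24.24, 24.5, 11.42 and 11.85 CPM in Tet2KO HSCs and at most 2.85 CPM in RPs. Tet2KO libraries 1 and 2 of this transcript reached the Dnmt3aKO level, and libraries 3 and 4 lay at that of Control library 4. Its ratio of means was 2.883 and its log2 fold change 1.45 (SE 0.83, edgeR adjusted p = 0.7485), or 2.22 without Control library 4. ENSMUST00000104937.1 stood at 26.46, 17.82 and 14.12 CPM in Control and at 10.26, 7.999 and 5.949 CPM in Dnmt3aKO HSCs, again without overlap. It was at 13.93, 18.11, 10.36 and 16.77 CPM in Tet2KO HSCs, and at most 5.55 CPM in RPs. All Tet2KO libraries lay above Dnmt3aKO in plain CPM, at the closest by 10.36 against 10.26 CPM. Its ratio of means was 0.4145 and its log2 fold change -1.22 (SE 0.61, edgeR adjusted p = 0.6682). Neither passed the test. For ENSMUST00000060792.5 the log2 fold change was 0.61 (SE 0.37, edgeR adjusted p = 0.7788), and it was -0.03 without Dnmt3aKO library 4.

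In Tet2KO against Control HSCs, 80 of 118 transcripts lay below 0 and 38 above, and 0 passed the edgeR test. The share above 0 was 32.2%, against 55.5% of all transcripts tested and 43.2% of the other expressed ones. The median was -0.17, against 0.10 over all tested, with a median standard error of 0.47, and values ran from -1.45 to 1.59. Over all transcripts 0.198% were called. The smallest adjusted p in the set was 0.2095, and 5 transcripts had an unadjusted p under 0.05 (1 higher, 4 lower; 4.24% of the set and 11.2% of all). No overlap with Tet2KO lower was seen for 6 (5.08%) against 1.74% of all, and with Tet2KO higher for 4 (3.39%) against 6.2% of all. Among the other expressed transcripts these shares were 2.49% and 4.46%. With TMM-scaled levels the counts were 4 (3.39%) and 2 (1.69%), against 2.73% and 5.25% of all. Of the other expressed ones 4.17% and 2.78% were then apart, so the set's share with Tet2KO lower was not above theirs. The median was -0.03 without Control library 4, with 56 transcripts above 0, and -0.09 without Tet2KO library 3. It was -0.29 without Control library 3, with 36 above 0, and -0.29 without Tet2KO library 4, with 32 above 0, so single libraries moved it both ways. Without all 3 libraries numbered 4 it was -0.17, with 45 above 0.

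The transcript that stood highest in Tet2KO HSCs relative to Control was ENSMUST00000129245.7. It was at 29.7, 26.81 and 22.95 CPM in Control, at 54.24, 16.21 and 11.03 CPM in Dnmt3aKO, and at 108.9, 111.3, 84.13 and 49.76 CPM in Tet2KO HSCs. Tet2KO library 4 lay below Dnmt3aKO library 1, and all 4 Tet2KO libraries lay above Control. In RPs it was at 2.06, 3.225, 0.3888 and 3.138 CPM in Control and at 3.325, 5.635, 7.863 and 4.224 CPM in Tet2KO libraries a to d. In plain CPM these did not overlap, but the nearest, Control library b and Tet2KO library a, held only 12 and 14 counts. TMM factors of 0.953 and 1.08 put the first above the second, so the separation in RPs depended on the scaling. The mean in HSCs was 88.51 ± 28.6 (SD, n = 4) in Tet2KO and 26.49 ± 3.384 (SD, n = 3) CPM in Control, a ratio of 3.342. The log2 fold change of 1.59 (SE 0.49) missed the threshold in edgeR (adjusted p = 0.2095) and passed it in DESeq2 (1.60, adjusted p = 0.03665), which called this transcript alone of the set (0.847%) and 2.51% of all. In RPs the log2 fold change was 1.19 (SE 0.50, edgeR adjusted p = 1).

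The lowest relative to Control was ENSMUST00000030964.5, at 107.1, 69.57 and 307 CPM in Control, at 147.9, 149.2 and 136.2 CPM in Dnmt3aKO, and at 95.32, 64.63, 46.34 and 71.63 CPM in Tet2KO HSCs. Control library 4 stood far above the others, and Tet2KO overlapped Control and lay below all Dnmt3aKO libraries. The log2 fold change of -1.45 (SE 0.55, edgeR adjusted p = 0.2997) rested on that library: without it the value was -0.33. For ENSMUST00000060792.5 the log2 fold change was -0.84 (SE 0.35, edgeR adjusted p = 0.3544), and for ENSMUST00000032341.2 it was 0.34 (SE 0.24, edgeR adjusted p = 0.7112), or 0.14 without Control library 2 and 0.56 without Control library 4.

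Among the HSC comparisons, the median of the set lay farthest from 0 between the 2 knockouts. In Dnmt3aKO against Tet2KO HSCs, 98 of 118 transcripts lay above 0 and 20 below, which is 83.1% above 0 against 43.2% of all transcripts tested and 55.7% of the other expressed ones. The median was 0.42 against -0.13 over all, with quartiles of 0.10 and 0.78 and a median standard error of 0.47. By edgeR 0 were called, over all transcripts 0.138% were, and the smallest adjusted p in the set was 0.1309. An unadjusted p under 0.05 was reached by 19 (18 higher in Dnmt3aKO, 1 lower), which is 16.1% of the set and 11% of all, and DESeq2 called 5 (4 higher, 1 lower; 4.24%) and 2% of all. No overlap with Dnmt3aKO higher was seen for 16 (13.6%) against 1.88% of all, and with Dnmt3aKO lower for 2 (1.69%) against 5.46% of all. Among the other expressed transcripts these shares were 2.6% and 4.68%. With TMM-scaled levels the first count was 21 (17.8%), against 2.85% of all and 4.26% of the other expressed ones. At least 2-fold higher in Dnmt3aKO were 18 (15.3%) against 7.6% of all, and 2-fold lower 1 (0.847%) against 21.4% of all. These 2-fold shares were not compared with those of the other expressed transcripts. Without the libraries numbered 4 the median was 0.41, with 100 above 0, and over each library left out in turn it stayed between 0.32 and 0.54.

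The smallest p belonged to ENSMUST00000060792.5, whose Dnmt3aKO libraries, from 2933 CPM, all lay above its Tet2KO libraries, up to 2226 CPM. Its log2 fold change was 1.44 (SE 0.35), which missed the threshold in edgeR (adjusted p = 0.1309) and passed it in DESeq2 (1.48, adjusted p = 0.01232). Without Dnmt3aKO library 4 the edgeR value was 0.80. The largest ratio of means, 5.394, belonged to ENSMUST00000050027.8, at 90.03, 171.4 and 252.9 CPM in Dnmt3aKO and at 14.47, 36.75, 70.46 and 5.468 CPM in Tet2KO HSCs, without overlap. Control libraries were at 129.3, 38.74 and 37.24 CPM and overlapped both, and RPs were at most at 4.625 CPM. Its log2 fold change was 2.78 (SE 0.79, edgeR adjusted p = 0.1905), and 1.79 without the libraries numbered 4. DESeq2 did not call it (2.81, adjusted p = 0.1077). With no filter on low counts edgeR called it (2.77, adjusted p = 2.684e-09), and calls then rose to 6.78% of the set and 0.935% of all. The call thus depended on the filter. The lowest ratio, 0.3068, belonged to ENSMUST00000129245.7 (log2 fold change -1.61, SE 0.49, edgeR adjusted p = 0.2257, DESeq2 adjusted p = 0.03921), with overlap between Dnmt3aKO library 1 and Tet2KO library 4. Without that Dnmt3aKO library its log2 fold change was -2.43.

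**Figure D5:**
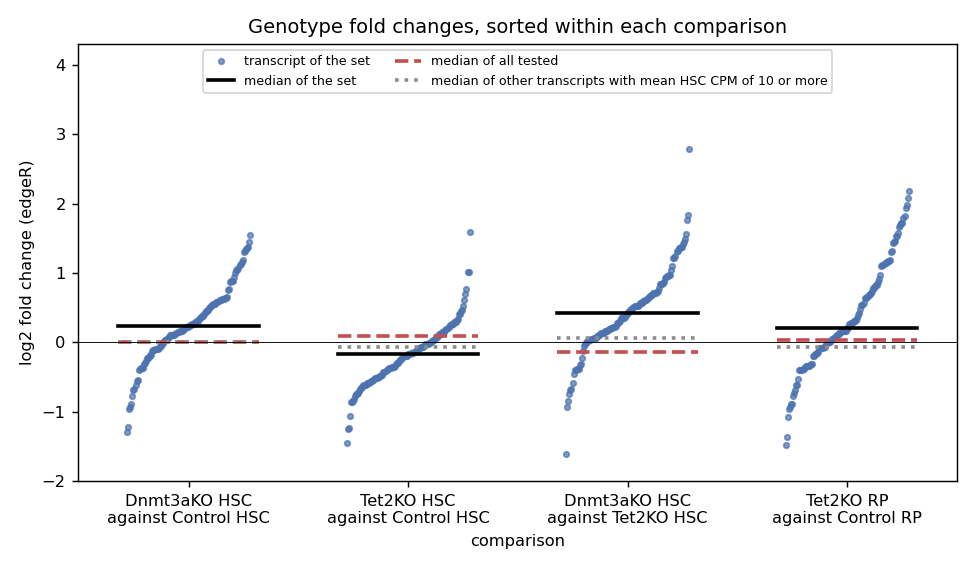
Log2 fold change (vertical) of each of the 118 transcripts, sorted within 4 genotype comparisons (horizontal), with the median of the set (solid), of all tested transcripts (dashed) and of the other transcripts with a mean HSC level of at least 10 CPM (dotted). The median of the set lies at 0.23, -0.17, 0.42 and 0.21 from left to right, while single transcripts spread over more than 2 log2 units.

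In RPs, Tet2KO against Control, 78 of 118 transcripts lay above 0 and 40 below, with a median of 0.21 against 0.03 over all tested. The share above 0 was 66.1%, against 52.3% of all transcripts and 40.4% of those expressed in HSCs at 10 CPM or more outside the set. By edgeR 0 were called, over all transcripts 0.134% were, and the smallest adjusted p was 0.3836, while DESeq2 called 1 (0.847%) and 0.437% of all. An unadjusted p under 0.05 was reached by 25 (21 higher, 4 lower), or 21.2% of the set and 3.82% of all. No overlap with Tet2KO higher was seen for 6 (5.08%) against 3.09% of all, and with Tet2KO lower for 0 against 1.41% of all. Among the transcripts outside the set that HSCs express at 10 CPM or more, these shares were 2.23% and 2.03%. Scaled with TMM the counts were 4 and 2, against 2.68% and 1.97% of all and 1.75% and 3.28% of those others. At least 2-fold higher in Tet2KO were 27 (22.9%) against 12.1% of all, and 2-fold lower 3 (2.54%) against 4.99% of all. The 2-fold shares were again not computed for those others. Without Control RP library d the median was 0.42, with 83 above 0. The RP levels of the set are low, at a median of 3.608 ± 1.178 (SD, n = 4) CPM in Control and 4.428 ± 0.5547 (SD, n = 4) in Tet2KO. The rule bounds the RP level from above, in both genotypes.

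Whether the Tet2KO difference depended on the cell type was tested as an interaction, the log2 fold change in RPs minus that in HSCs. It lay above 0 for 80 of 118 and below for 38, a share of 67.8% against 44.6% of all transcripts tested. Of the other transcripts with a mean HSC level of at least 10 CPM, 48.9% lay above 0. The median was 0.50 against -0.10 over all and -0.01 over those others, with a median standard error of 0.68. The rule that chose the set used the same HSC and RP levels, with the genotypes together. For no transcript did it pass the edgeR test: the smallest adjusted p in the set was 0.8246, 0% of all transcripts were called, and DESeq2 called 0 of the set and 0.0486% of all. An unadjusted p under 0.05 was reached by 13 (13 above 0, 0 below), or 11% of the set and 5.35% of all. Without Control HSC library 4 the median was 0.27, with 71 above 0, and without all 3 libraries numbered 4 it was 0.40, with 78 above 0. The number of transcripts detected at equal depth also differed between these groups, as given for each library, and its part in these medians was not tested.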

How the data were processed

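RNA-seq libraries were made with a kit for very low RNA input, per the labels' protocols. The authors deposited raw read counts per Ensembl transcript. Per the submitters' processing notes, mm10 was the build and the tools included HTSeq 0.8.0, STAR 2.0.4, featureCounts and edgeR 3.9. The counter, whether it used strand, and how it treated reads on shared exons are not given in the sources, so transcripts that share exons, near-identical copies and antisense pairs are uncertain. Of 36 columns, 18 matched samples and 18 were not used. HSC columns name a genotype and number but no cell type, and were taken as HSCs because the others carry the RP name.

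CPM used column totals. The set and the lists were chosen with earlier results of these data known. Tests ran in R 4.3.3 with edgeR 4.0.16 (filterByExpr by group with minimum count 10 and minimum total 15, TMM factors, group as the only term, all 18 libraries; for transcripts chosen in 1 genotype, only the libraries of the other) on 26820 transcripts, at an adjusted p of 0.05, and were tested on simulated data. Alternatives were DESeq2 1.42.0, relative log expression size factors, no filter, other samples in the fit, a replicate block and each library left out. Values of libraries within a group are mean ± SD.

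The transcripts named are the 2 most abundant, the 2 with the largest HSC-to-RP ratio, and, for each comparison of HSC groups, those with the highest and lowest ratio of group means. Planned gene names, marker lists, pathway lists and transcripts of similar pattern needed gene symbols and were not run.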

Additional observations from a re-analysis of the deposited data

Results flagged for a closer look

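Over 30 sets of 4 libraries, for the 9 named transcripts and for the summed level in 3 groups, 3 held a library far from the others of its group by Dixon's criterion at 95%, and chance gives about 1 in 20. All were RP libraries at very low levels. ENSMUST00000102517.3 stood at 2.15 CPM in Control RP library b, with the other Control RP libraries between 0 and 0.1944 CPM. ENSMUST00000104937.1 stood at 4.314 CPM in Control RP library d, with the others between 1.075 and 1.442 CPM. ENSMUST00000205228.2 stood at 0.4526 CPM in Tet2KO RP library d, with no count in the other Tet2KO RP libraries; any count in 1 of 4 libraries meets the criterion when the others have none, so this one says nothing about that library. Groups of 3 libraries were not examined in this way, so Control and Dnmt3aKO HSC libraries were not covered.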

How the results depend on the processing

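By edgeR, 0 of the 118 transcripts were called in each of the 5 genotype comparisons with other size factors, with only the groups compared and with each library left out in turn, and in the 4 that use HSCs without the HSC libraries numbered 4. Over all transcripts, in the order used above, other size factors gave 4, 56, 40, 37 and 0 calls. With only the groups compared there were 0, 21, 10, 78 and 0, and without the libraries numbered 4 there were 6, 96, 35 and 0. With so few calls over all, 0 in the set says little about its stability. DESeq2 called 1 in Tet2KO against Control HSCs, 5 in Dnmt3aKO against Tet2KO HSCs and 1 in Tet2KO against Control RPs, among 673, 536 and 117 over all transcripts. With no filter on low counts edgeR called 1 in Dnmt3aKO against Control HSCs, 3 in Tet2KO against Control HSCs, 8 in Dnmt3aKO against Tet2KO HSCs, 1 in RPs and 2 in the interaction, or 0.847%, 2.54%, 6.78%, 0.847% and 1.69% of the set against 0.362%, 1.25%, 0.935%, 0.3% and 0.3% of all 80388 transcripts; the cause was not tested. The 3 in Tet2KO against Control HSCs were ENSMUST00000129245.7, ENSMUST00000030964.5 and ENSMUST00000060792.5. The set would hold 202 transcripts at 2-fold and 54 at 8-fold.

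The log2 fold change of ENSMUST00000060792.5 in Dnmt3aKO against Control HSCs turned to -0.12 without the HSC libraries numbered 4, and over libraries left out ran from -0.033 to 0.89. That of ENSMUST00000032341.2 was -0.12, turned to 0.10 without those libraries, and ran from -0.32 to 0.11. Without the HSC libraries numbered 4, Dnmt3aKO lay above Control without overlap for 51 (43.2% of the set, 18.3% of all tested). It lay below for 6 (5.08% and 14.7%). Dnmt3aKO lay above Tet2KO for 44 (37.3% and 9.06%) and below for 4 (3.39% and 15.9%). Tet2KO lay above and below Control for 11 each (9.32% of the set, against 18.3% and 8.74% of all). Shares of the other expressed transcripts were, in the same order, 17.1% and 17%, 12.1% and 13%, and 12.6% and 12.3%. There were fewer libraries to separate. Transcripts chosen in Control and called in Tet2KO cells ranged from 65 to 131 over alternatives, and the reverse from 71 to 122. Over all transcripts tested, between 117 and 564 were called higher in HSCs in the first case and between 142 and 913 in the second.

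HSC numbers recur across genotypes, and the main fit did not treat them as pairs. Deviations of libraries with the same number other than 4 correlated by 0.03 to 0.09. Those with different numbers other than 4 correlated by 0.01 to 0.13. Libraries numbered 4 correlated with each other by 0.18 to 0.25 and with the rest by -0.18 to -0.05, so they shared a pattern across genotypes. With the replicate block, fitted in HSC libraries only, 0 transcripts of the set were called in each comparison of HSC groups. Over all transcripts 0, 10 and 8 were called (Dnmt3aKO against Control, Tet2KO against Control, Dnmt3aKO against Tet2KO). In HSC libraries with no block these numbers were 0, 15 and 11. In the same order, the medians of the set were 0.12, -0.26 and 0.36 with the block, against 0.21, -0.20 and 0.43 with no block.

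Over the 8 RP libraries together a transcript of the set had a median of 171 counts, with a range of 6 to 23257.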
